A study of Mus musculus with 47 samples.

Results

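Old and young male mice were compared 1 day after the onset of sepsis, in 4 hippocampi of each age, to ask how age alters gene expression in the septic male brain. These 8 libraries, of 47 in the study, were the old and the young males of day 1 as the sample labels give them, and the comparison covered the 11738 of 28032 listed genes that averaged at least 5 CPM (counts scaled to the size of the library) over the 8. The C57BL/6 mice were 3 to 5 (young) or 18 to 22 (old) months old, and 1 library was made from each mouse. The septic mice had undergone cecal ligation and puncture, in which the cecum is tied off and pierced so that gut bacteria enter the abdomen. All 8 mice also received buprenorphine after surgery and delayed injections of the antibiotic imipenem. They had an hour of restraint before they were killed 24 h after surgery. Every value of septic mice below therefore comes from animals that had surgery, anesthesia, analgesia, antibiotic and restraint. Beside them stand 4 young and 4 old control males, taken from the home cage without surgery, and 4 young and 4 old septic females of the same day. Genes at the edge of the rule were Pold4, with a mean of 5.00 CPM and inside it, and Gm27177, with 4.9975 CPM and outside it.

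Sepsis is a systemic response to infection that reaches the brain mostly through blood-borne cytokines and bacterial products. Brain endothelial cells, which form the blood-brain barrier, sense these signals first, and microglia and astrocytes, the resident immune and support cells, respond after them. In the uninfected aging rodent hippocampus, microglial and complement genes are known to be higher, while newborn neurons and oligodendrocyte precursors become fewer.

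The 8 libraries held an estimated 19559532 to 25449664 reads assigned to genes, by the size of the smallest step in their values. Markers of the labelled tissue were present in every library, among them Prox1, a transcription factor of dentate granule cells (61.9 to 86.2 CPM), and Fibcd1, a gene of CA1 pyramidal cells (131 to 173 CPM). Sex-linked genes matched the label in each of the 24 libraries used, with 0 mismatches. Defining markers of white blood cells were low, with at most 0.116 CPM of Cd3e, a T cell gene, and 3.04 of S100a9, a neutrophil gene, whereas 5 red cell genes summed to 84.4 to 170 CPM in young and 55.7 to 147 in old males, highest in young replicate 1. The libraries differed in tissue from the ventricle. The summed level of 15 choroid plexus markers was 6878 CPM in young replicate 4, 4778 in young replicate 1 and 4434 in old replicate 3, against 116 to 350 in the other five. All 13 tested members of that list had lower means in old males, with a median log2 difference of −1.44 and none passing the test, and Ttr, which encodes the transthyretin of choroid plexus, was between 8.44 and 4674 CPM. Some counts of called list members are therefore also given without those 3 libraries, which leaves 2 young and 3 old males. Fewer are given without young replicate 1, which stood above its group in several vascular and inflammatory genes.

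Of the 11738 genes, 389 (3.31%) passed an unadjusted p of 0.01 in limma, 158 of them higher (1.35%) and 231 lower (1.97%) in old septic males, where 1% of the genes tested would be 117. At a Benjamini-Hochberg adjusted p of 0.05 there were 7 (0.0596%), of which 6 were higher and 1 was lower. The differences were small: the median size among the 389 was 0.323 on the log2 scale (log2 of CPM plus 1), only 8 exceeded 1, and they ran from −1.40 for Lcn2 to 1.62 for Ighm. The libraries of the 2 ages did not overlap in 745 genes (6.35% of those tested). Without the 3 libraries high in choroid plexus markers there were 379 calls, 102 higher and 277 lower, and 147 of the 389 were among them. All 389 kept their sign. The genes past the adjusted threshold were Ighm, P2ry12, Mpeg1, C4b, Pcdhga2 and Pcdhb9, higher in old males, and Gpr17, lower.

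**Figure D1:**
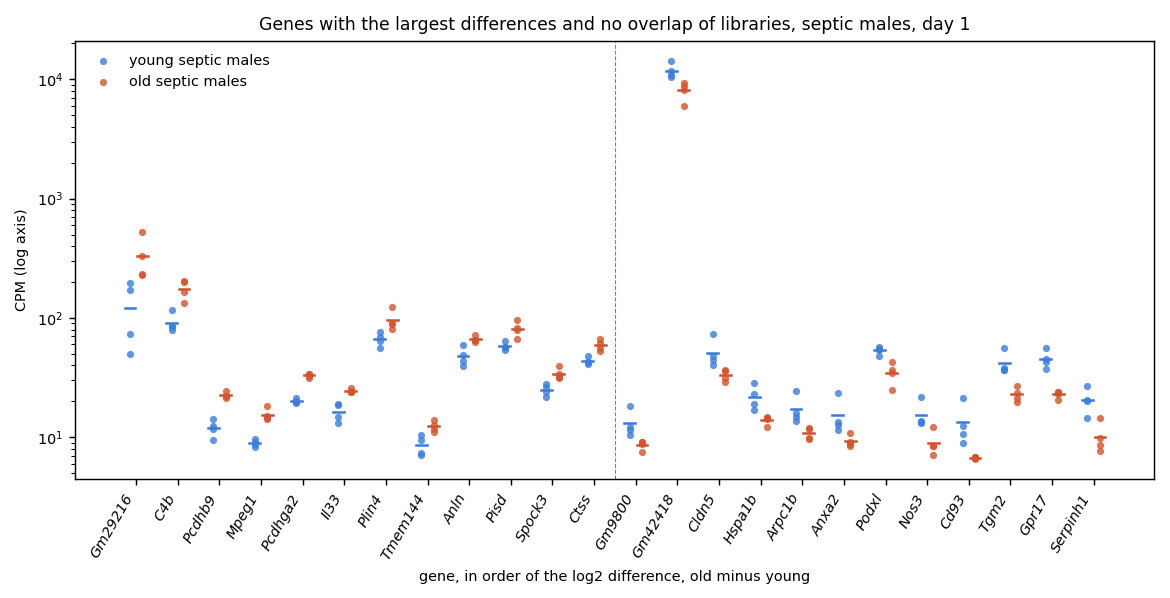
The 12 higher and 12 lower called genes of largest difference, restricted to genes whose ages did not overlap and whose mean reached 10 CPM, in CPM on a log axis, with 1 point for each of the 4 young (blue) and 4 old (red) septic males and a bar at each group's mean. C4b, for example, lay between 79.7 and 116 CPM in young and between 133 and 202 in old males, and Gpr17 between 37.2 and 56.5 in young and 20.4 and 24.2 in old males.

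Genes of immune cells were among those with the largest higher values in old septic males. Ighm encodes the constant region of the immunoglobulin M heavy chain (chromosome 12, from 113418558 to 113422730 in GRCm38, as are all positions here, by the GENCODE vM21 annotation). It was at 3.83, 3.87, 3.98 and 3.24 CPM in the 4 young males and at 13.7, 14.3, 9.51 and 18.0 in the 4 old males. The lowest old male held more than 2 times the level of the highest young male. The group means differed 3.72-fold (1.62 ± 0.16 log2, SE, limma adjusted p = 0.00133). The other genes of B cells did not accompany it: Cd79a reached 0.451 CPM, Igkc 0.314 and Ms4a1 0.0410 at most in any of the 8 libraries, and Jchain, which joins IgM pentamers, lay between 0.119 and 0.354. The summed level of 18 lymphocyte markers was 4.39 to 6.16 CPM in young and 12.04 to 19.7 in old males, nearly all of it Ighm, the only member above the filter. Old controls also exceeded young controls in Ighm, with 17.6 ± 1.38 CPM against 7.87 ± 1.0 (SD, n = 4 each).

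P2ry12 encodes the purine receptor with which surveying microglia detect injury and which they lose on activation (chromosome 3, from 59216272 to 59262871). It was at 3.76, 6.60, 6.64 and 4.51 CPM in young and at 14.5, 11.7, 11.7 and 11.5 CPM in old males, so that the ages did not overlap. The means differed 2.30-fold (1.09 ± 0.16 log2, limma adjusted p = 0.0278). Of the 11 tested genes of a homeostatic microglia list, 3 were called, all higher, and 10 had a positive difference, with a median log2 difference of 0.20 (−0.01 over all genes tested). Siglech, a sialic acid-binding lectin, was also called (0.67 ± 0.20). It overlapped between the ages, with 2.52, 4.12, 5.37 and 4.31 CPM in young and 6.32, 5.11, 9.33 and 7.55 CPM in old males. The summed level of the 12 listed genes was 202 to 269 CPM in young and 261 to 299 CPM in old males. In bulk tissue, fewer cells of a type and less RNA of a gene per cell cannot be told apart. With the 3 libraries high in choroid plexus markers left out, 1 of the 3 calls was left.

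Mpeg1, the pore-forming perforin-2 of macrophages and microglia, was at 8.23, 9.16, 8.81 and 9.61 CPM in young and at 14.4, 14.1, 15.2 and 18.3 CPM in old males (chromosome 19, from 12460779 to 12465283). Its groups were far apart, and the mean was 1.73-fold higher in old males (0.73 ± 0.10 log2, limma adjusted p = 0.0195). Of 15 tested genes of an activated microglia list, 3 were called, all higher. Trem2, the lipid receptor that drives microglial phagocytosis, was at 5.64, 6.31, 5.33 and 4.59 CPM in young and 9.02, 7.62, 9.01 and 10.03 CPM in old males (0.62 ± 0.12 log2). The lysosomal protease Ctss (0.43 ± 0.08) and the membrane glycoprotein Gpnmb (0.45 ± 0.13) were the others, and neither overlapped between the ages. The activated list's median difference was −0.04, and its 15 members divided into 7 positive and 8 negative.

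Of 11 tested complement genes, C4b and C1qc were called, both higher. C4b, the fourth component of the classical pathway (chromosome 17, from 34728380 to 34743882), was at 116, 85.5, 84.5 and 79.7 CPM in young and at 133, 202, 165 and 199 CPM in old males. Every old male was above every young male, and the means differed 1.91-fold (0.93 ± 0.14 log2, limma adjusted p = 0.0348). A share of 32.2% of the 50-base words of C4b also occurs in C4a, so reads of the 2 genes are hard to assign. C1qc, a chain of the recognition molecule C1q, was at 28.9, 38.6, 38.5 and 28.6 CPM in young and 38.0, 44.2, 42.5 and 46.4 CPM in old males, which overlapped (0.35 ± 0.11). It lost its call under 9 of 18 alternatives, among them leaving out young replicate 1 or 4, old replicate 2, 3 or 4, and the 3 libraries high in choroid plexus markers, without which C4b was the only complement call. Il33, the alarmin held in the nuclei of oligodendrocytes and astrocytes, was also higher, at 24.0 to 25.7 CPM in the 4 old and 13.1 to 19.1 CPM in the 4 young males (0.57 ± 0.11). No member was called among the 8 tested genes of MHC class I (median −0.0048) and the 10 of the interferon response (median −0.03).

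The clustered protocadherins, cell-surface adhesion proteins of which each neuron displays its own combination, held 2 of the 7 genes past the adjusted threshold. Pcdhga2 was at 20.04, 21.2, 19.5 and 19.9 CPM in young and 34.2, 31.4, 33.6 and 32.8 CPM in old males (0.68 ± 0.07 log2, limma adjusted p = 0.00133). Pcdhb9 was at 9.51, 12.3, 14.2 and 11.8 CPM in young and 22.1, 22.2, 24.4 and 21.5 CPM in old males (0.87 ± 0.11, limma adjusted p = 0.00772). In both genes the libraries of an age lay close together and the ages were separated. Of the 41 tested members of the family, 7 were called higher, 5 of them of the beta cluster (Pcdhb3, Pcdhb5, Pcdhb9, Pcdhb12 and Pcdhb13) and 2 of the gamma cluster (Pcdhga2 and Pcdhga6). Pcdhgc3 was called lower. The family as a whole was not displaced, with a median difference of −0.02, 17 members positive and 24 negative. The gamma genes share their last exons, and 45.1% of the exon bases of Pcdhga2 belong to other members, so their levels are not independent. Without the 3 libraries high in choroid plexus markers, 3 members were called higher and 5 lower, and the beta genes Pcdhb3 and Pcdhb9 kept their calls under each alternative in which they were tested.

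Gpr17, the receptor that marks precursors on the way to differentiation, was the only gene lower in old males past the adjusted threshold. It was at 42.7, 56.5, 45.2 and 37.2 CPM in young and at 23.2, 20.4, 23.8 and 24.2 CPM in old males, with means 1.98-fold lower in old males (−0.95 ± 0.11 log2, limma adjusted p = 0.00637). Of 12 tested precursor genes, 3 were called, all lower, with a list median of −0.14. The other called members were Cspg4, the NG2 proteoglycan (−0.36 ± 0.09), and Olig1, a transcription factor of the lineage (−0.31 ± 0.09). The summed level of the 15 listed genes was 473 to 596 CPM in young and 445 to 479 CPM in old males, which overlapped through young replicate 1. With the 3 libraries high in choroid plexus markers left out, 4 members were called lower.

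Genes of the mature, myelinating cell were called in both directions, 4 higher and 2 lower of 25 tested, with a median of 0.01. The 4 higher were Aspa, which splits N-acetylaspartate (0.68 ± 0.14), the alarmin Il33, Hapln2, a link protein of the nodes of Ranvier (0.41 ± 0.10), and Ermn, a cytoskeletal protein of the outer myelin loops (0.40 ± 0.12). Anln, an actin-binding protein of myelin outside the list, was at 39.5, 49.1, 59.4 and 43.8 CPM in young and 62.5, 64.9, 65.6 and 71.5 CPM in old males, without overlap (0.47 ± 0.11). The lower members were the myelin genes Cnp (−0.25) and Pllp (−0.30). Without the 3 libraries high in choroid plexus markers 2 of the 4 higher members were called.

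Some genes of a neurogenesis list were lower in old septic males. Of its 14 tested members, 12 were negative and 4 were called, all lower, with a median of −0.17. Dcx, Sox11, Neurod1 and Calb2 were tested and not called, and Eomes, Mki67 and Top2a were below the filter. Dpysl5, a growth cone protein of immature neurons, was at 34.5, 39.1, 35.3 and 37.4 CPM in young and 28.3, 28.2, 29.7 and 29.8 CPM in old males (−0.32 ± 0.07). The related Dpysl3 (−0.33 ± 0.07), the transcription factor Sox4 (−0.42 ± 0.11) and Marcksl1, an actin regulator of migrating neurons (−0.32 ± 0.08), were the others, each without overlap between the ages. A share of 54.6% of the exon bases of Sox4 lies over the gene Gm26735 on the other strand. Without the 3 libraries high in choroid plexus markers 3 members were called lower, and Sox4 and Marcksl1 were not among them.

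Of 16 tested endothelial markers, 6 were called, all lower in old septic males, and 15 had a negative difference, with a median of −0.28. The sum over the 17 listed genes was 504 to 615 CPM in the young and 402 to 496 CPM in the old males, and did not overlap. Cldn5, the main tight junction protein of the blood-brain barrier, was at 73.1, 40.1, 44.2 and 48.0 CPM in young and 36.3, 28.8, 31.1 and 35.9 CPM in old males (−0.59 ± 0.15). The ages did not overlap, though young replicate 1 stood well above the other young males, and the call was lost without the 3 libraries high in choroid plexus markers. The angiopoietin receptor gene Tek (−0.71 ± 0.18) and its partner Tie1 (−0.77 ± 0.19) were lower, as were Ly6c1 (−0.48 ± 0.11), of whose 50-base words 36.7% occur in Ly6c2, the adhesion molecule Pecam1 (−0.46 ± 0.12) and the surface antigen Ly6a (−0.35). Between 5 and 6 endothelial genes were called when any single library was left out, and 4 without the 3 high in choroid plexus markers.

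Podxl, a sialomucin of the luminal surface, was at 55.3, 54.3, 57.5 and 47.6 CPM in young and 34.8, 24.8, 42.8 and 36.7 CPM in old males, without overlap (−0.63 ± 0.13). Nos3, the endothelial nitric oxide synthase, was at 21.6, 13.5, 13.7 and 13.2 CPM in young and 12.1, 8.53, 8.39 and 7.09 CPM in old males (−0.71 ± 0.17). Cd93, a lectin-like receptor of endothelium, was at 21.4, 8.97, 12.5 and 10.6 CPM in young and at 6.55 to 6.86 CPM in the 4 old males (−0.82 ± 0.20). Thbd, the anticoagulant thrombomodulin, was at 20.4, 7.42, 8.49 and 8.46 CPM in young and 6.82, 4.56, 5.53 and 4.84 CPM in old males (−0.82 ± 0.25). Young replicate 1 was the highest of all 8 in Nos3, Cd93 and Thbd, and the other young males were above every old male in each of them.

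Some smooth muscle and matrix genes were lower as well. Of 7 tested mural cell genes 2 were called, with a median of −0.30: Acta2, smooth muscle actin, at 17.0, 9.04, 8.98 and 10.7 CPM in young and 4.78, 4.24, 5.90 and 5.07 CPM in old males (−1.01 ± 0.18), and Myh11, smooth muscle myosin (−0.59 ± 0.13). The means of Acta2 were 2.29-fold lower in old males, and its call remained under every alternative in which it was tested. There were 3 mural genes called lower without the 3 libraries high in choroid plexus markers. Serpinh1, the chaperone that collagen needs to fold (chromosome 7, from 99345376 to 99353239), was at 27.1, 20.1, 14.6 and 20.7 CPM in young and 8.55, 7.62, 14.5 and 9.84 CPM in old males (−0.96 ± 0.19). The ages only just separated, since old replicate 3 lay beside young replicate 3. Of 19 tested collagen and matrix genes 4 were called, all lower, with a median of −0.16: the basement membrane genes Hspg2 (−0.79 ± 0.23), Nid1 (−0.53 ± 0.14) and Col4a1 (−0.33 ± 0.10), and the proteoglycan Bgn (−0.60 ± 0.19). Without young replicate 1, 1 member of this list was called. Without the 3 libraries high in choroid plexus markers 3 were called lower, and Nid1, Col4a1 and Bgn were not among them. The summed level of 12 meningeal fibroblast markers, which share matrix genes, was 107 to 338 CPM in young and 95.2 to 211 CPM in old males, highest in those 3 libraries.

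**Figure D2:**
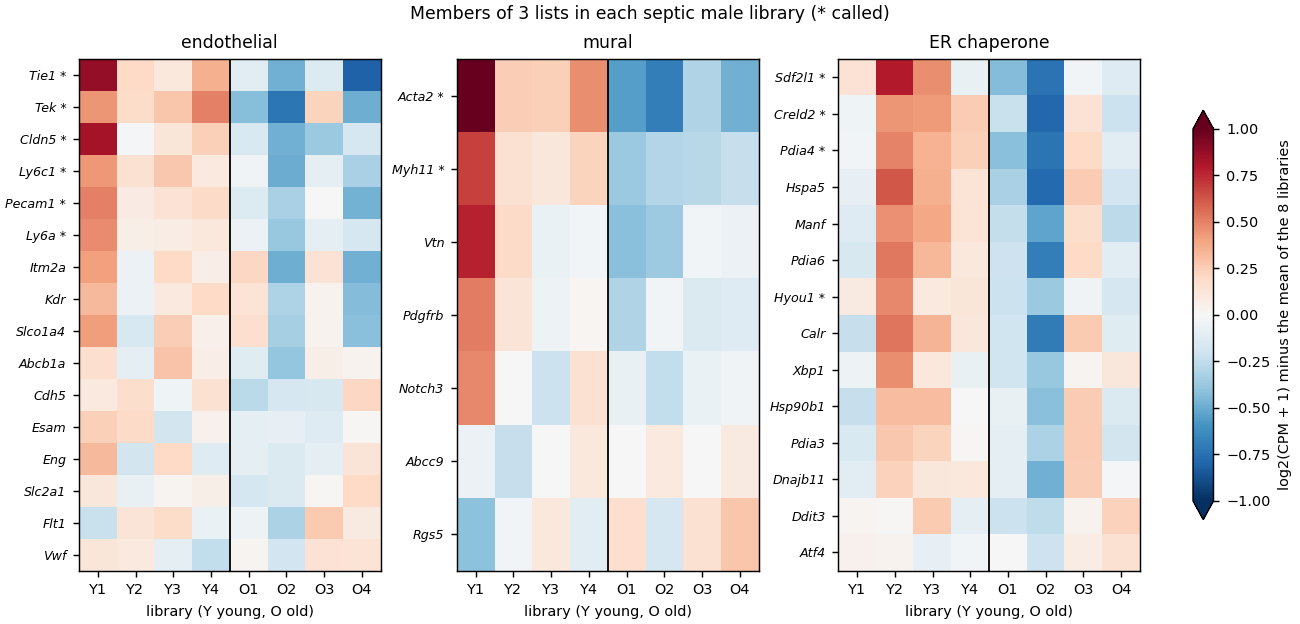
Log2 of CPM plus 1 of each tested member of the endothelial, mural and ER chaperone lists, minus its mean over the 8 libraries, in the 4 young (Y) and 4 old (O) septic males, with red above and blue below the mean and a star at called genes. The colour scale saturates at 1 in each direction. Young replicate 1 is the reddest column of the endothelial and mural lists, and in the ER chaperone list young replicate 2 is the reddest and old replicate 2 the bluest.

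Tgm2, tissue transglutaminase, a protein crosslinking enzyme of endothelium and reactive glia (chromosome 2, from 158116402 to 158146436), was at 56.0, 37.7, 36.9 and 37.0 CPM in young and 19.7, 23.7, 21.4 and 26.9 CPM in old males. The means were 1.83-fold lower in old males (−0.83 ± 0.13, limma adjusted p = 0.0621), the ages did not overlap, and the call was kept under each alternative in which it was tested. Lcp1, the actin bundler plastin of leukocytes and microglia, was at 14.2, 15.4, 13.5 and 12.7 CPM in young and 7.58, 10.9, 9.38 and 11.0 CPM in old males (−0.49 ± 0.12), also without overlap.

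Lcn2, the iron-binding lipocalin that astrocytes, endothelium and neutrophils secrete in inflammation, had the largest negative difference among the called genes, with libraries of the 2 ages that overlapped. It was at 98.1, 25.7, 24.5 and 23.6 CPM in young and 7.67, 13.7, 9.01 and 25.6 CPM in old males. Old replicate 4 lay within the young range and young replicate 1 far above it (−1.40 ± 0.43, limma adjusted p = 0.276), and the call was lost without old replicate 1, 2 or 3 and without the 3 libraries high in choroid plexus markers. Icam1, the adhesion molecule through which leukocytes attach to activated endothelium, had the same shape, at 24.1, 9.54, 6.07 and 8.46 CPM in young and 3.93, 2.91, 4.20 and 7.63 CPM in old males (−1.09 ± 0.34), and lost its call under 9 of 18 alternatives, among them leaving out young replicate 1 or 2, old replicate 1, 2 or 3, and the 3 libraries high in choroid plexus markers. Icam1 was the only call among 14 tested cytokine and NF-kB genes, of which 13 were negative (median −0.14), and Lcn2 the only call among 12 reactive astrocyte genes (median −0.08). The 12 listed neutrophil and monocyte markers summed to 8.94 to 16.6 CPM in young males, highest in young replicate 1, and to 9.91 to 12.1 CPM in old males, and their part in these results was not tested.

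Chaperones of the endoplasmic reticulum (ER) fold secreted and membrane proteins and are induced together by the unfolded protein response, in which the transcription factors ATF6 and XBP1 bind ER stress response elements in their promoters. Of 14 tested ER chaperone genes 4 were called, all lower in old septic males, and 13 had a negative difference, with a median of −0.39. Hyou1, an HSP70-type chaperone (chromosome 9, from 44379490 to 44392369), was at 114, 150, 115 and 117 CPM in young and 92.1, 82.6, 104 and 95.0 CPM in old males, without overlap (−0.40 ± 0.10). Sdf2l1, a cofactor of the chaperone BiP, was at 8.80, 14.4, 11.2 and 7.43 CPM in young and 5.59, 4.32, 7.70 and 7.13 CPM in old males (−0.66 ± 0.19). In both genes young replicate 2 was the highest and old replicate 2 the lowest of the 8.

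The other called members were Creld2 (−0.54 ± 0.17), a disulfide isomerase-like protein of the ER, and Pdia4, a disulfide isomerase. Pdia4 was at 36.0, 52.1, 47.1 and 43.6 CPM in young and 27.2, 21.7, 42.4 and 34.1 CPM in old males (−0.53 ± 0.17), where old replicate 3 lay among the young males. Hspa5, the chaperone BiP itself, had a difference of −0.52 that did not pass the test, as did Manf (−0.42), Pdia6 (−0.40) and Calr (−0.38), whereas Atf4, a transcription factor of the integrated stress response, was at 0.01. The number of called members moved widely: it was 7 without young replicate 1, 7 without old replicate 3, 11 without the 3 libraries high in choroid plexus markers, and 1 when young replicate 2, young replicate 3, old replicate 1 or old replicate 2 was left out.

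The promoters of these genes were read for the ER stress response element, since 13 of 14 members had lower means in old males. The element was searched as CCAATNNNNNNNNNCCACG on both strands of 300 bases around each start site (250 before and 50 after) in the RefSeq promoters of GRCm38.p6. Of 12 list members with a promoter in that set, 5 held it (41.7%), against 39 of all 32851 promoters (0.119%). The list was drawn up from genes of the unfolded protein response, so a high share follows from that choice and has no bearing on age. The 6 matches are shown because they are the copies of the element in these 5 promoters. Each is printed on the strand of its gene, 5′ to 3′, with the 2 fixed parts of the element in capitals (CCAAT and CCACG, or CGTGG and ATTGG where it runs in reverse).
Hspa5, chr2:34772025-34772043, plus strand: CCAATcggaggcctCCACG
Pdia6, chr12:17266491-17266509, plus strand: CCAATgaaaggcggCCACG
Hsp90b1, chr10:86705638-86705656, minus strand: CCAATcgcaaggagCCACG
Hsp90b1, chr10:86705533-86705551, minus strand: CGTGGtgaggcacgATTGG
Calr, chr8:84847075-84847093, minus strand: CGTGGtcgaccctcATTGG
Creld2, chr15:88819520-88819538, plus strand: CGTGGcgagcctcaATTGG
Of these 5 genes only Creld2 passed the test in old against young septic males. Pdia4 and Sdf2l1, which also passed it, had no match in this window. Hyou1 and Manf were not in the table. A match describes the sequence and not the binding of a factor.

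Some genes of neuronal activity were slightly higher in old septic males. Of 21 tested immediate early genes, which neurons transcribe within minutes of stimulation, 4 were called, all higher, with a median of 0.14. Of the 21, 14 had a positive and 7 a negative difference. The summed level of the 24 listed genes was 648 to 783 CPM in young and 742 to 770 CPM in old males, which overlapped. Egr1, a zinc finger transcription factor, was at 56.5, 48.2, 64.2 and 39.5 CPM in young and 70.7, 77.4, 73.3 and 63.6 CPM in old males (0.46 ± 0.12), where 1 young male exceeded the lowest old male. Fos (0.47 ± 0.15) and Nr4a1 (0.32 ± 0.10) overlapped between the ages, and Ier5 did not (0.22 ± 0.07). Without young replicate 1, 2 members were called. Without the 3 libraries high in choroid plexus markers 1 member was called, and Egr1, Fos, Nr4a1 and Ier5 all lost their calls. Fos lost its call under 13 of 18 alternatives. Most of these calls were near the threshold.

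Of 19 tested postsynaptic density genes 18 were negative and 3 were called, all lower, with a median of −0.11 (4 without the 3 libraries high in choroid plexus markers). In control males 17 of these genes were negative and 7 were called lower, with a median of −0.25. Over all genes tested, 4.97% were called lower in controls and 1.97% in septic males. Whether the list differed between the settings was not tested. Among single calls in their lists were S100b, a calcium-binding protein of astrocytes, at 70.3, 77.1, 83.5 and 69.2 CPM in young and 96.4, 97.1, 93.8 and 98.6 CPM in old males (0.36 ± 0.07). Others were Insig1, the sterol sensor of cholesterol synthesis (0.34 ± 0.09), Gclc, the first enzyme of glutathione synthesis (0.28 ± 0.07), and the clock gene Bhlhe40 (0.20 ± 0.06), all higher. Hspa1b, an inducible HSP70, was lower (−0.59 ± 0.14), and 62.7% of its 50-base words occur in Hspa1a. Plin4, a coat protein of lipid droplets, was at 76.8, 56.0, 63.7 and 69.5 CPM in young and 80.5, 122, 88.2 and 90.7 CPM in old males (0.51 ± 0.12). In the home-cage controls Plin4 was at 5.06 ± 2.01 CPM in young and 5.86 ± 3.51 in old males (SD, n = 4 each).

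Among the larger lists, 3 of 79 cytosolic ribosomal protein genes were called higher and 1 lower (median 0.07), and 1 of 73 respiratory chain genes in each direction (median 0.05). The 15 tested mitochondrially encoded genes had a median of 0.32, with 14 positive and none called, and their listed genes summed to 23233 to 49454 CPM in young and 39793 to 43743 CPM in old males. The pseudogene Gm29216 (1.55 ± 0.39) shares 95.6% of its 50-base words with the mitochondrial gene mt-Co1 and cannot be separated from it. None was called among 18 tested genes of the glucocorticoid response (median −0.02), 19 of lysosomes (−0.02), 10 of p53 and senescence (−0.03), 22 of glutamate receptors (−0.05), 14 of GABA receptors (0.06), 17 of synaptic vesicles (−0.04), 9 neuropeptides (0.04) and 12 interneuron markers (0.13), nor among the markers of dentate granule, CA1 and CA3 cells. Over the 21 lists with no call by limma, 24 of 214 members had an unadjusted p under 0.05, against 11.6% of all genes tested. The lists were not alike in this. The 24 included 5 of the 15 mitochondrially encoded genes, and 0 of the 18 glucocorticoid response and 0 of the 19 lysosome genes. That no member was called does not show that the ages were alike in them.

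**Figure D3:**
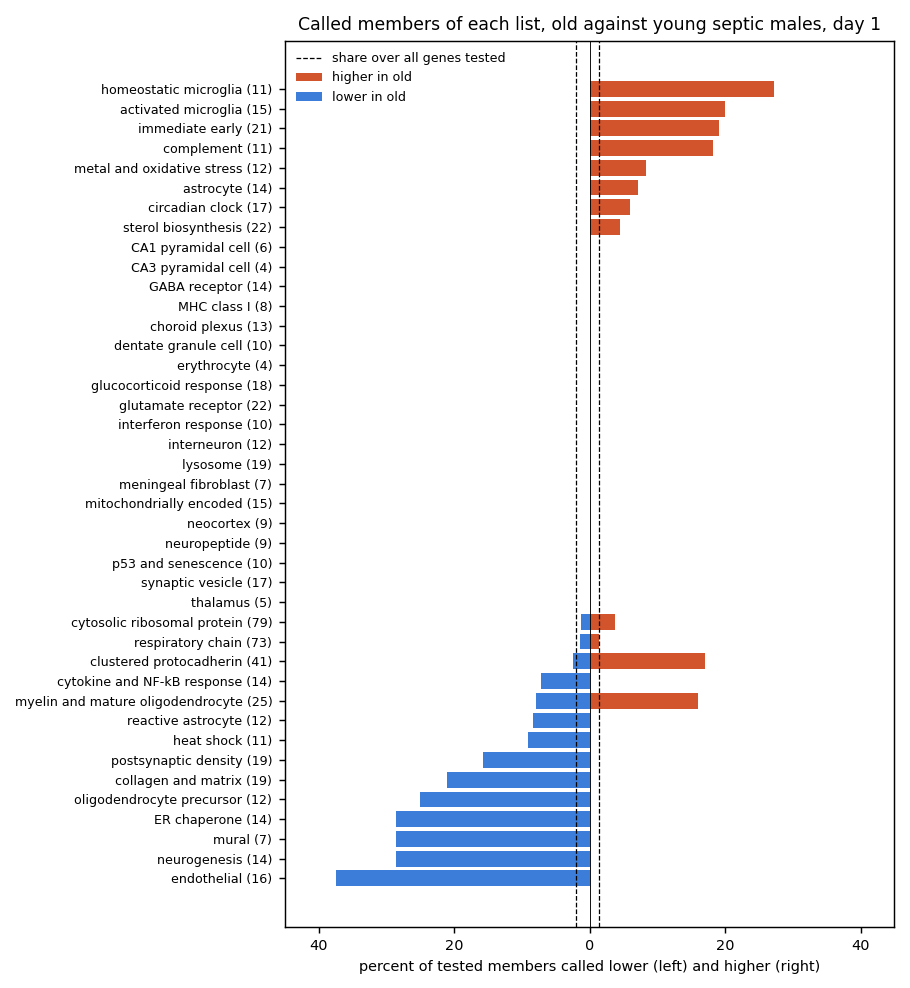
Percent of the tested members of each list with at least 4 of them (their number in parentheses) that were called lower (blue, to the left) or higher (red, to the right) in old septic males, with dashed lines at the share over all genes tested, 1.97% lower and 1.35% higher. The longest bars are those of the endothelial list to the left, with 6 of 16 members, and of the homeostatic microglia list to the right, with 3 of 11.

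The same difference of age was then read in the 8 control males, which share no library with the septic ones. Old and young controls differed in 975 genes (8.31%), 392 higher (3.34%) and 583 lower (4.97%) in old, and in 73 (0.622%) at an adjusted p of 0.05. Of the 389 genes called in septic males 145 were called in the same direction in controls, 60 higher and 85 lower, which is 37.3% of the septic and 14.9% of the control calls, and 0 were called in the opposite direction. The sign was the same in 367 of the 389 (94.3%), against 73.4% of all genes tested. The median control difference was 0.28 over the genes called higher in septic males (0.34 in the septic males themselves) and −0.25 over those called lower (−0.31). Across the 11738 genes, which are not independent of each other, Pearson's r of the 2 differences was 0.66. The controls also differed in tissue from the ventricle. Their 15 choroid plexus markers summed to 126 to 6883 CPM in young and 139 to 199 CPM in old males. All 13 tested members had a negative difference in controls (median −1.58), as in septic males (−1.44). The part of this tissue in the shared differences was not tested.

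**Figure D4:**
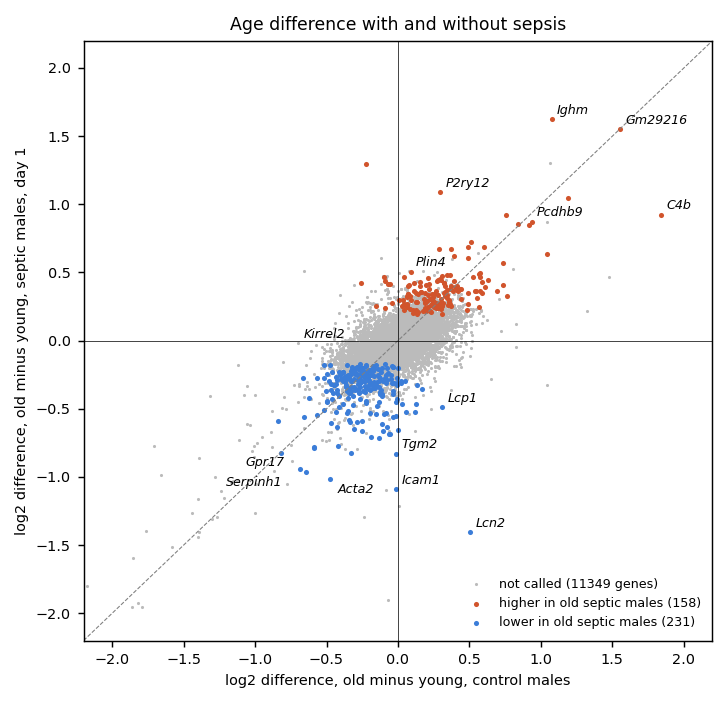
Old minus young log2 difference of each gene in control males (horizontal axis) and in septic males (vertical axis), with genes called higher (red, 158) and lower (blue, 231) in septic males coloured, a dashed line of equal differences and 1 gene outside the axes. C4b lies at 1.84 in controls and 0.93 in septic males, and Tgm2 at −0.02 and −0.83.

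Genes with close values in both settings included Pcdhb9 (0.94 in control and 0.87 in septic males), Pcdhga2 (0.60 and 0.68), Il33 (0.74 and 0.57), S100b (0.39 and 0.36), Gpr17 (−0.69 and −0.95), Dpysl5 (−0.45 and −0.32) and Thbd (−0.82 in both). Among the higher genes called in both were C4b (1.84 and 0.93), Ighm (1.07 and 1.62) and Pisd-ps1 (1.19 and 1.05), a pseudogene of the phosphatidylserine decarboxylase gene Pisd. Lists compared in the same way had medians of −0.07 in controls and −0.28 in septic males for endothelial genes, with 1 and 6 of 16 called, of −0.08 and −0.39 for ER chaperones, with 0 and 4 of 14 called, and of −0.26 and −0.17 for neurogenesis, with 6 and 4 of 14 called. Over all genes tested, 8.31% were called in controls and 3.31% in septic males. The difference between the lists' medians was not tested.

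Whether a gene's age difference itself differed between septic and control males was tested gene by gene as an interaction. It passed an unadjusted p of 0.01 in limma for 63 genes (0.537%), 22 positive (0.187%) and 41 negative (0.349%), and for 0 after adjustment, with 412 at an unadjusted p of 0.05 and 0.576 as the lowest adjusted p, so that the share called was below 1% of the genes tested. C4b had the lowest p (−0.91 ± 0.18 log2). It was at 46.8 ± 6.13 CPM in young and 169 ± 7.82 in old controls (SD, n = 4 each), and at 91.4 ± 16.5 in young and 175 ± 32.5 in old septic males. The old means lay within 1 SD of each other, and every young septic male was above every young control. Tgm2 (−0.81 ± 0.16) was at 13.5 ± 0.848 CPM in young and 13.4 ± 0.283 in old controls, and was higher in each septic male, with an old mean of 22.9 and a young mean of 41.9.

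P2ry12 was the named gene of largest positive interaction (0.80 ± 0.20). Its control means were 20.1 ± 3.06 CPM in young and 24.8 ± 2.72 in old males, above all 8 septic males, of which the old ones were the higher. Lcp1 (−0.80 ± 0.17) had control means of 7.56 CPM in young and 9.63 in old males, against 13.9 and 9.73 in septic males. Lcn2 (−1.91 ± 0.57) was below 1 CPM on average in both control groups, at 0.307 ± 0.352 in young and 0.913 ± 0.786 in old. Podxl (−0.56 ± 0.19), at 33.4 and 31.5 CPM in young and old controls, and Pecam1 (−0.59 ± 0.15) were vascular genes among these calls, and Egr1 (0.56 ± 0.19) an immediate early gene.

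Some genes differed by age in controls and not detectably in septic males. Kirrel2, a neuronal adhesion molecule, was at 9.98 ± 1.31 CPM in young and 5.76 ± 0.864 in old controls and between 11.7 and 15.8 in all 8 septic males, with means of 13.5 and 13.4 (interaction 0.68 ± 0.16). Foxo6, a forkhead factor of hippocampal neurons, was at 14.8 and 9.29 CPM in young and old controls and 10.5 and 9.96 in septic males (0.53 ± 0.16). Pcdhgb1 behaved alike (0.54 ± 0.18). The interactions of C4b, Kirrel2 and Lcp1 passed an unadjusted p of 0.01 under each alternative tested, those of Tgm2 and Foxo6 under all but a fit of all 12 groups, and that of P2ry12 under all but leaving out the 3 libraries high in choroid plexus markers, while those of Egr1 and Podxl were lost under most.

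**Figure D5:**
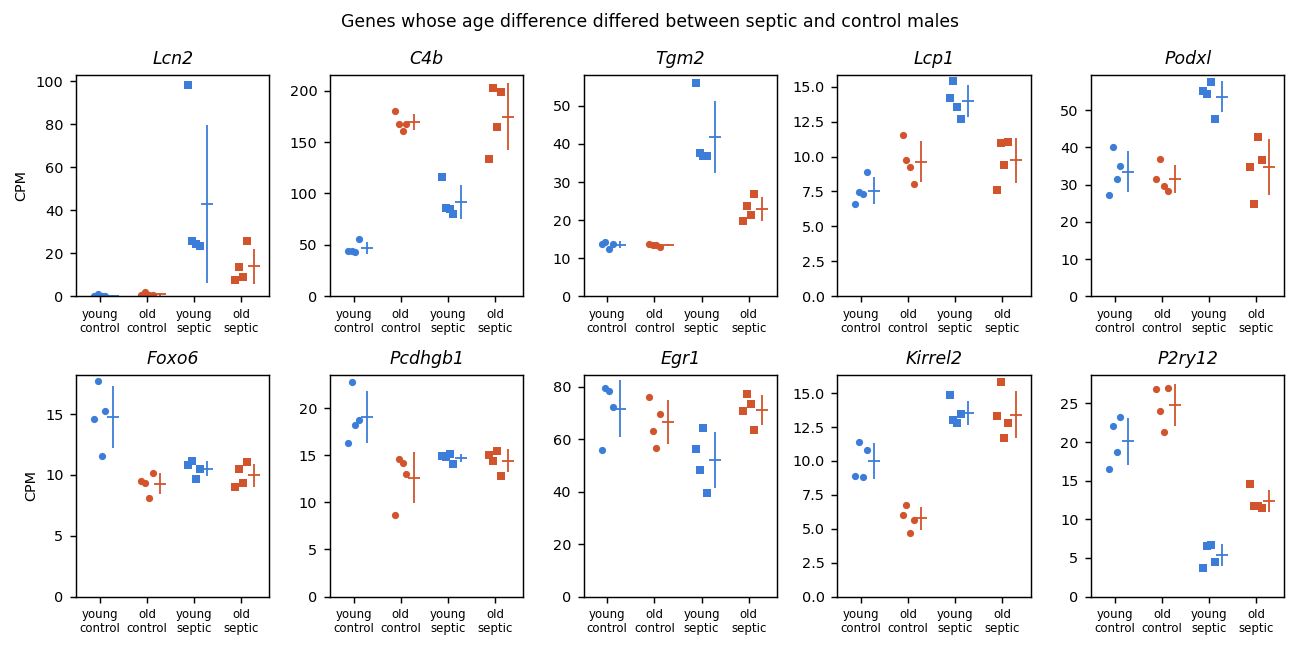
CPM of the 10 named genes whose age by sepsis interaction passed an unadjusted p of 0.01, in young (blue) and old (red) control (circles) and septic (squares) males, with 1 point a library and the mean ± SD of the 4 beside it. Tgm2 has means of 13.5 and 13.4 in controls and 41.9 and 22.9 in young and old septic males, and Kirrel2 has 9.98 and 5.76 in controls and 13.5 and 13.4 in septic males.

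In septic females of the same day the ages differed far more. There were 2443 calls (20.8%), 1160 higher (9.88%) and 1283 lower (10.9%) in old females, and 2518 genes (21.5%) at an adjusted p of 0.05. Of the 389 genes called in males 114 were called in the same direction in females, 29.3% of the male and 4.67% of the female calls, and 10 in the opposite direction, and 79.7% of the 389 had the same sign against 62.7% of all genes (Pearson's r 0.29 over 11738 genes). An age by sex interaction passed an unadjusted p of 0.01 for 1341 genes (11.4%), 701 positive (5.97%) and 640 negative (5.45%), and an adjusted p of 0.05 for 869 (7.40%). Ighm (1.27 in females), Mpeg1 (1.37), Pcdhga2 (0.68), Pcdhb9 (0.83) and Serpinh1 (−0.84) were called in the same direction in both sexes.

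P2ry12 differed between the sexes (interaction 0.998 ± 0.22, limma adjusted p = 0.0124): young and old septic females averaged 4.81 and 5.14 CPM, near the young septic males. Gpr17 was lower with age in both sexes but further in females, with means of 38.8 and 7.23 CPM (−2.36, interaction 1.41 ± 0.28, limma adjusted p = 0.00783). Sox4 had opposite signs, −0.42 in males and 0.66 in females (interaction −1.08 ± 0.24, limma adjusted p = 0.0128), and so did the matrix gene Nid1, −0.53 and 0.88 (−1.41 ± 0.24, limma adjusted p = 0.00316). Lcn2 was 26.1 CPM in young and 61.2 in old septic females, an order opposite to that of the males (interaction −2.44 ± 0.61, limma adjusted p = 0.0228).

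Medians of several lists differed between the sexes, and this difference was not tested. Of all genes tested, 9.88% were called higher and 10.9% lower in females, against 1.35% and 1.97% in males. The homeostatic microglia list had medians of 0.20 in males and −0.38 in females, where 5 of 11 members were called lower and 1 higher. Activated microglia had 9 of 15 called higher in females (median 0.68) and 3 in males, reactive astrocytes 7 of 12 in females (0.91) and none higher in males, and the glucocorticoid response 10 of 18 higher in females (0.36) and none in males. Of the 16 endothelial genes 8 were called lower and 1 higher in old females (median −0.51), with 4 of 16 positive, among them Cldn5 (0.17 in females and −0.59 in males). Of the 14 ER chaperones 6 were called lower (−0.26).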

How the data were processed

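Whole hippocampi gave 1 library of poly(A) RNA per mouse, sequenced on the Ion Proton. According to the methods of the study, the authors aligned the reads to mm10 with STAR and scaled the counts per gene with TMM factors. They deposited CPM of 28032 genes in a single table. Settings of counting, and whether strand was used, are not given in the sources used here. Groups came from the sample labels and columns were matched by label, with 0 columns without a sample. Between 80.3% and 84.0% of the low values of a library lay within 0.05 reads of an integer, which was too few to recover reads or to fit a count model.

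Each comparison was fitted on log2(CPM + 1) with limma 3.58.1 in R 4.3.3 (variance trend, libraries of its groups only), always on the same 11738 genes. Genes with a two-sided unadjusted p under 0.01 were called, the threshold of the study, and adjusted p-values are Benjamini-Hochberg over all genes tested. A fold is a ratio of mean CPM, and a difference on the log2(CPM + 1) scale understates changes of low genes. Named genes were the 12 higher and 12 lower calls of largest difference whose ages did not overlap and whose mean reached 10 CPM, up to 4 called members of each list (up to 2 of highest mean where none was called), the 4 largest interactions in each direction, and the 4 higher and 4 lower calls largest in both septic and control males. Other members named beside these (Pecam1, Ly6a, Hspa5, Manf, Pdia6, Calr, Atf4, Cnp, Pllp, Pcdhgc3, further protocadherins and the B cell and T cell genes) were chosen after their values were seen. So were the neurogenesis genes named as not called or below the filter. The genes, lists and tests were chosen with earlier results of these data known. Alternatives were other pseudocounts, filters, scaling and models, a GC correction, a replicate block and leaving out each library. Leaving out the 3 libraries highest in choroid plexus markers was added after seeing the data. The fits were tested on simulated data. Overlaps of exons and shared 50-base words were computed on GENCODE vM21. Some genes that the naming rule selects are not reported here.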

Additional observations from a re-analysis of the deposited data

Results flagged for a closer look

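Within the groups of 4 septic males, 1 library stood far from the other three in 19 of 254 groups of values examined (7.48%), where chance gives about 1 in 20. In 8 of these it was young replicate 1, the highest of its group in Lcn2 (98.15 CPM), C4b (115.9), Tgm2 (56.05), Ctla2a (31.55), Anxa2 (23.34), Nos3 (21.61), Thbd (20.37) and Myh11 (15.09). Most of these are genes of vessels or of the response to inflammation. Old replicate 3 stood above its group in the choroid plexus and meningeal genes Ttr (2939 CPM), Enpp2 (1065) and Igf2 (103.1), and in Hspg2 (13.16). Young replicate 3 was highest in Snap25 (1215) and Plk2 (196.8) and lowest in Bok (45.42). Young replicate 2 was highest in Hyou1 (150.1), old replicate 1 in P2ry12 (14.53) and old replicate 4 in Sst (133.3), and old replicate 4 was lowest in Rps23 (30.96).

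The age difference of 10 named genes differed between septic and control males at an unadjusted p of 0.01 in limma and in none after adjustment. As septic minus control males on the log2 scale, the difference was −1.909 for Lcn2, −0.914 for C4b, −0.8121 for Tgm2, −0.7976 for Lcp1 and −0.56 for Podxl. It was 0.7965 for P2ry12, 0.6821 for Kirrel2, 0.5648 for Egr1, 0.5443 for Pcdhgb1 and 0.5324 for Foxo6.

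Between the sexes the age difference of 33 named genes differed by the same test, given here as males minus females on the log2 scale. Among genes of immune and glial cells it was −2.44 for Lcn2, −1.77 for Spp1, −1.635 for Icam1, −0.7833 for H2-D1, −0.7632 for C4b, −0.6436 for Mpeg1, −0.6354 for Lcp1, −0.5377 for B2m and −0.2826 for Ctsb, and 0.998 for P2ry12. In the oligodendrocyte lineage it was 1.41 for Gpr17, 0.6083 for Ermn, 0.5792 for Anln and 0.5229 for Tmem144. Vascular, matrix and blood genes gave −1.733 for Hba-a1, −1.716 for Ctla2a, −1.703 for Hba-a2, −1.617 for Hbb-bs, −1.413 for Nid1, −0.9362 for Arpc1b, −0.729 for Dcn and 0.6359 for Ly6c1. Neuronal and other genes gave −1.08 for Sox4, −0.4773 for Marcksl1, −0.4219 for Ndufb7, 0.7528 for Egr1, 0.6744 for Pcdhb3, 0.607 for Ntng1 and 0.5972 for Foxo6. The largest positive values were 4.477 for Gm17167, 4.335 for Gm5859, 3.584 for Gm13301 and 1.807 for Kctd21. The first 3 of these were near 0 in old septic females, with means of 0.00963, 0.0101 and 0.0353 CPM.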

How the results depend on the processing

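Every alternative reused libraries from which the 389 calls in septic males were taken, so a kept sign is not independent support. The calls kept their sign under every alternative in which they were tested, but their number moved. It was 134 with a mean of at least 50 CPM, 212 in a fit of all 12 groups and 200 to 666 when a single library was left out (200 without old replicate 1, 245 without old replicate 2 and 666 without young replicate 3), with 180 to 307 of the 389 still called. Without a filter on low values there were 582 calls. Other pseudocounts and scaling by the median of ratios left at least 382 of the 389 called. The 7 genes past the adjusted threshold became 2 without a filter, 1 with a mean of at least 50 CPM, 1 with an unmoderated F test, 16 in the fit of all 12 groups, 38 without the 3 libraries high in choroid plexus markers, and 4 to 29 without a single library (12 without young replicate 1, 29 without young replicate 3, 4 without old replicate 3). The 975 calls in control males were 396 at a mean of at least 50 CPM, 428 after correction for GC content and 534 to 1143 without a single library, 534 of them without young control replicate 2 and 586 without old control replicate 1. The 2443 calls in septic females were 732 at that mean and 1655 to 2709 without a single library. The 63 genes of the age by sepsis interaction became 207 without a filter, 14 at that mean, 22 in the fit of all 12 groups, 102 without the 3 libraries, and 41 to 148 without a single library (99, 41 and 148 without young control replicates 1, 2 and 3). The 1341 of the age by sex interaction became 350 at that mean and 1061 to 1497 without a single library. Stricter filters test fewer genes, and the cause of the other changes was not tested. Of 1408 values of the 77 called named genes under the alternatives, 1139 were still called and none reversed. Replicate numbers did not pair the septic males (correlations of same-numbered deviations −0.452, 0.089, −0.477 and −0.117), and a fit with the replicate number as a block called 246 genes. With CPM only, depth limits precision mostly for genes near the 5 CPM edge.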
